A study of Saccharomyces cerevisiae with 6 samples.

Results

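Sulfur assimilation, methionine and threonine genes of budding yeast are described here, 40 genes chosen by name for their place in these pathways out of 5449 yeast genes on the array. All 40 were found, each read by 1 probe set that the array design does not mark as shared between genes. The rule used no measured value. Total RNA was measured on 6 single-colour Affymetrix arrays in groups of 3. In the zymolyase group, cells were incubated for 20 min at 25 °C with zymolyase, an enzyme preparation that digests wall glucan, and RNA was then isolated with the MagExtractor kit. Cells of the control group had no such incubation, and their RNA was extracted with the FastRNA Pro Red kit. Enzyme and kit changed together, so their effects cannot be told apart. All 6 samples were labelled BY4743, a diploid laboratory strain with the genotype MATa/α his3Δ1 leu2Δ0 met15Δ0 ura3Δ0 lys2Δ0. All were grown for 2 days at 25 °C in YPD, a rich medium that supplies methionine and threonine, with 0.01% of the detergent SDS. Whether the 3 samples of a group were grown separately is not stated in the labels, and the p-values cover no more than the spread among these 3, which may be technical.

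Yeast takes up sulfate, activates it with ATP and reduces it in steps to sulfide. Sulfide is joined to O-acetylhomoserine, which comes from aspartate through homoserine, to give homocysteine, and homoserine is also the branch point to threonine. Homocysteine is methylated to methionine or turned into cysteine by transsulfuration, and methionine is made into S-adenosylmethionine (AdoMet), the cell's main methyl donor. The activator Met4, which binds DNA through Cbf1, Met28, Met31 and Met32, drives most genes of sulfate assimilation and is held in check by the ubiquitin ligase subunit Met30 when AdoMet and cysteine are plentiful. Gcn4, the activator of general amino acid control, acts on many of the same genes.

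Signals are MAS5 intensity on a linear scale, and different probe sets share no common scale, so each gene is compared with itself only. On every array all 40 genes lay above the background, taken as the 95th percentile of another yeast species' probe sets, which was 8.3 to 10.9 by array. SUL1 came nearest to it, at 11.5 to 19.9. The arrays went against the strain label. The 4 genes specific to alpha cells had signals of 1581 to 6754 on the zymolyase arrays and 1485 to 7412 on the control arrays, and all 4 exceeded the median gene on each array. The 7 genes specific to a cells were below the median gene throughout, at 8.2 to 133.8 on the zymolyase arrays and 8.0 to 90.1 on the control arrays. The 9 genes repressed in a/alpha diploids reached 410.4 to 2587 on the zymolyase arrays and 282.0 to 1994 on the control arrays. Of these 9, only 4 exceeded the median gene on each array. The samples are therefore called labelled BY4743. RNA quality differed with the groups: the log2 ratio of 3′ to 5′ signal over 8 yeast control genes was 2.60 ± 0.35 on the zymolyase arrays and 0.85 ± 0.24 on the control arrays (SD, n = 3 each), a difference of 1.74 with a standard error (SE) of 0.25 (exact two-sided permutation p = 0.1, the smallest that 3 against 3 arrays can give). Its part in the results that follow was not tested.

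MET17 (MET15), which joins sulfide to O-acetylhomoserine, is listed as deleted in the genotype. The genotype as given does not say whether every copy of a listed gene is deleted in the diploid. Its signal was 3667.8, 1080.1 and 1335.9 on the zymolyase arrays and 5015.1, 3581.2 and 3408.3 on the control arrays. MET17 exceeded the median gene on all 6 arrays, and the groups overlapped through zymolyase array 1. The log2 change of -1.18 (SE 0.42) had an adjusted p of 0.0558, and of 0.00474 with the replicate number as a block. URA3, LEU2, HIS3 and LYS2, listed in the genotype too, also had signals above background. URA3 reached 2617.5 to 2664.8 on the zymolyase arrays and 1887.6 to 2007.3 on the control arrays, and LEU2 370.9 to 423.6 and 518.0 to 836.1. In the same order, HIS3 had 438.0 to 649.3 and 910.7 to 1172.7, and LYS2 995.8 to 1164.9 and 659.4 to 896.9. URA3 and LYS2 exceeded the median gene on 6 arrays, HIS3 on 3 and LEU2 on 2.

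Of the 40 genes, 8 fell, 5 rose and 27 did not pass the test, which was limma on log2 signal with an adjusted p under 0.05 over all genes. That is 32.5% of these genes, beside 42.5% of all genes called in the same comparison (20.0% lower and 22.5% higher). The share of these genes that passed was thus not above that of genes in general. Their median log2 change was -0.12, beside 0.04 for all genes. Fewer cells of a type and less RNA per cell cannot be told apart in such bulk samples. Among the falls were HOM2, MET13, SAM1, SAM2 and SAH1, each at least 2-fold. The rises of at least 2-fold were those of MET4, MET1 and MET32.

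The numbers 1 to 3 of the arrays were taken to pair the samples, which the labels do not state. Deviations of same-numbered arrays from their group means correlated at 0.49, 0.20 and 0.41. Zymolyase array 2 correlated as closely with control array 3 (0.20), and zymolyase array 3 with control array 2 at 0.23. These values therefore cannot tell how arrays 2 and 3 pair. With the array number as a block, 16 of the 40 genes fell and 10 rose, 65.0% against 58.6% of all genes (27.3% lower and 31.2% higher). These 26 included all 13 of the calls made without the block. Without both arrays numbered 1, 16 fell and 13 rose, 72.5% against 61.0% of all genes (28.3% lower and 32.6% higher). When 1 array was left out, the count was 5 to 7 without an array numbered 2 or 3 of either group. That is 12.5% to 17.5% of the 40, against 29.7% to 32.4% of all genes. The count was 21 without zymolyase array 1 (52.5% against 45.5% of all genes) and 14 without control array 1 (35.0% against 45.2%). Calls that passed only with the block are given as such, and 7 of the 26 (HOM6, MET10, MET12, SAM4, STR2, MET28 and MET30) ended when the length trend was removed as well.

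**Figure D1:**
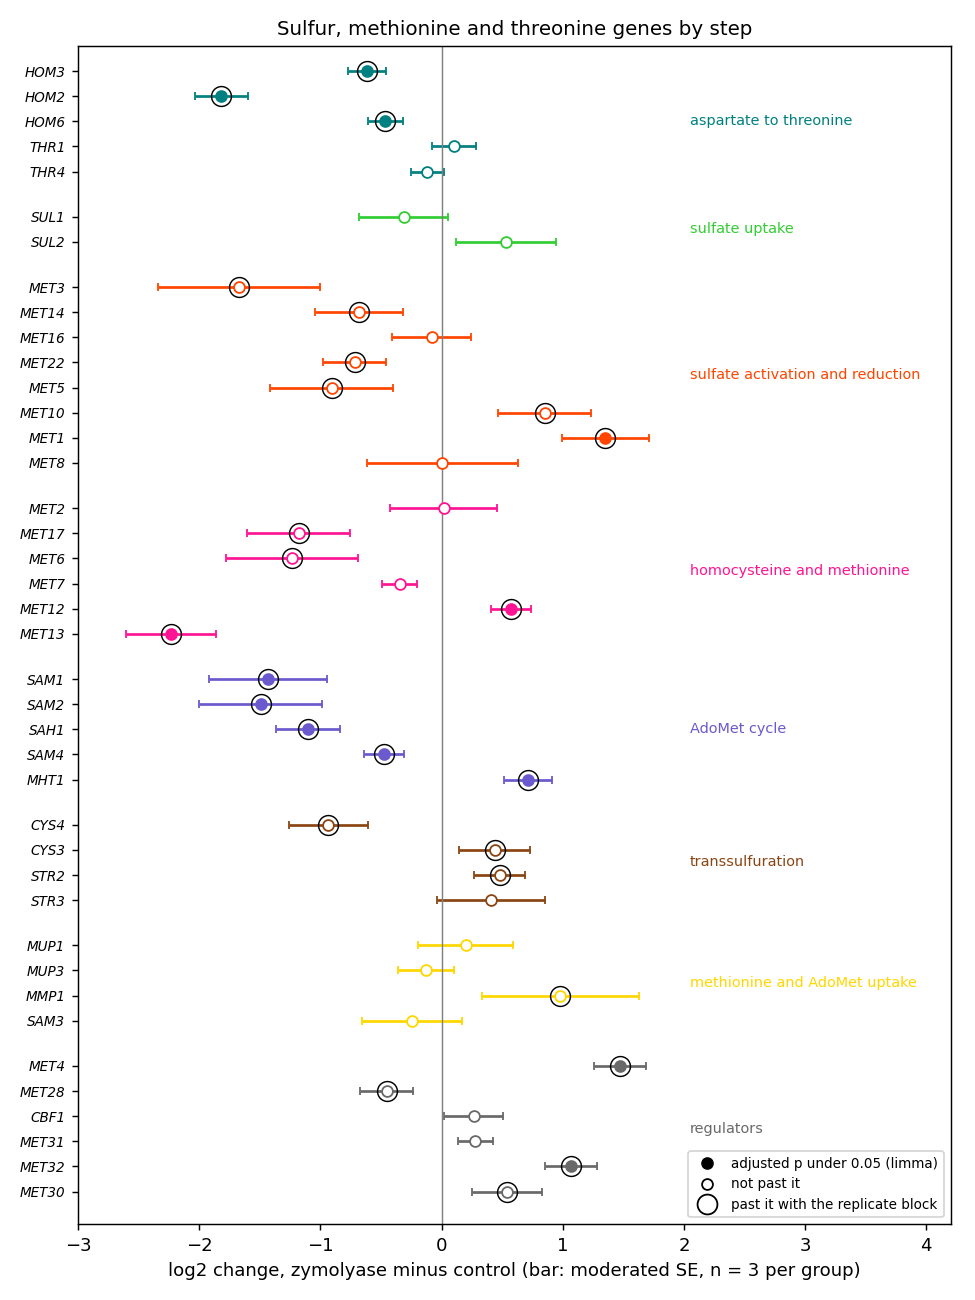
Log2 change of each of the 40 genes, zymolyase minus control, with its moderated standard error (n = 3 per group), arranged by step of the pathway. Filled points passed the adjusted p of 0.05 and ringed points passed it with the replicate number as a block. MET13 lies farthest to the left at -2.23 and MET4 farthest to the right at 1.47.

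The steps from aspartate to homoserine were lower in the zymolyase arrays, and the steps from homoserine to threonine did not pass. All 3 homoserine genes fell, at every same-numbered pair of arrays and with no overlap between groups. Over all genes 20.0% fell, 35.6% were lower in every pair and 25.7% were lower with no overlap. HOM2, for aspartate semialdehyde dehydrogenase, had signals of 1291.3, 754.4 and 967.0 on the zymolyase arrays and 3956.7, 3521.1 and 2951.6 on the control arrays. It fell 3.52-fold (log2 -1.82, SE 0.22, adjusted p = 0.0011). HOM3, for aspartate kinase, which catalyses the first step and is inhibited by threonine, had 753.9, 597.8 and 789.8 against 1157.9, 1023.6 and 1075.6 in control arrays (-0.61, SE 0.16, adjusted p = 0.0164). HOM6, for homoserine dehydrogenase, had the smallest of the 3 falls, at -0.46 (SE 0.15, adjusted p = 0.0348), and lost its call with the length trend removed (-0.35, adjusted p = 0.111) and when any array other than zymolyase array 1 was left out. The call of HOM3 was lost without zymolyase array 2 or control array 3. The ratio of HOM2 to HOM6 signal within an array differed between groups by -1.35 on the log2 scale (SE 0.17), with no overlap. THR1, for homoserine kinase, and THR4, for threonine synthase, had changes of 0.10 (SE 0.18) and -0.12 (SE 0.13), with adjusted p of 0.682 and 0.513. With each array centred on its median, THR1 had the other sign, at -0.059.

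Neither sulfate permease gene passed limma's test, with the block or without it, and 0 of the 2 had an unadjusted p under 0.05. SUL1 had a change of -0.31 (SE 0.37) close to background. SUL2 had signals of 287.8, 175.7 and 132.0 on the zymolyase arrays and 230.7, 85.3 and 112.0 on the control arrays, a change of 0.53 (SE 0.42, adjusted p = 0.336). Its groups overlapped, although the zymolyase array was the higher one in all 3 pairs.

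Of the 8 genes of sulfate activation and reduction, MET1 alone passed without the block, 12.5% against 42.5% of all genes. With the block 4 fell and 2 rose, 75.0% against 58.6%. MET1, a methyltransferase for siroheme, the cofactor of sulfite reductase, had signals of 568.8, 439.7 and 427.1 on the zymolyase arrays and 342.4, 130.7 and 143.8 on the control arrays. It rose 2.55-fold (log2 1.35, SE 0.36, adjusted p = 0.0179), and the call was lost without zymolyase array 2 or control array 2 or 3. MET8, which completes siroheme, had a change of 0.01 (SE 0.62, adjusted p = 0.995), with the other sign on centred arrays, at -0.15. MET8 signals were 223.1, 78.2 and 88.1 on the zymolyase arrays and 298.2, 65.1 and 78.1 on the control arrays. Its spread lay between array 1 and the others of each group.

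MET3, for ATP sulfurylase, the first enzyme of sulfate activation, had signals of 894.8, 172.0 and 194.6 on the zymolyase arrays and 1985.4, 658.9 and 741.1 on the control arrays. Each zymolyase array was lower than the control array of the same number, with log2 changes of -1.15, -1.94 and -1.93, yet zymolyase array 1 lay above control arrays 2 and 3. Its change of -1.67 (SE 0.67) had an adjusted p of 0.077 without the block and 0.000768 (SE 0.19) with it. MET14, the kinase that acts after Met3, and MET22, the phosphatase that removes the by-product of the reduction step, likewise passed only with the block, at -0.68 (adjusted p = 0.00471, against 0.166 without it) and -0.72 (adjusted p = 0.0123, against 0.0588 without it). MET16, for the reductase between them, had a change of -0.08 (SE 0.32, adjusted p = 0.86), and 0.16 with the length trend removed.

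The 2 subunits of sulfite reductase, MET5 and MET10, had changes of opposite sign. MET5, the beta subunit, had signals of 1023.3, 281.6 and 336.3 on the zymolyase arrays and 1424.5, 648.0 and 691.5 on the control arrays. MET10, the alpha subunit, had 1364.4, 786.9 and 706.4 on the zymolyase arrays and 897.2, 371.0 and 388.1 on the control arrays. In every pair MET5 was lower and MET10 higher on the zymolyase array, though the groups overlapped for both genes. Without the block the change of MET5 was -0.91 (SE 0.51, adjusted p = 0.185) and that of MET10 was 0.85 (SE 0.38, adjusted p = 0.11), and both passed with it, with adjusted p of 0.00397 and 0.00252. Within an array, the log2 ratio of MET5 to MET10 differed between groups by -1.76 (SE 0.31), and the groups did not overlap. With the length trend removed, MET5 fell (-1.56, adjusted p = 0.046) and MET10 had 0.35 (adjusted p = 0.49). Their coding lengths are 4329 and 3108 bases.

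**Figure D2:**
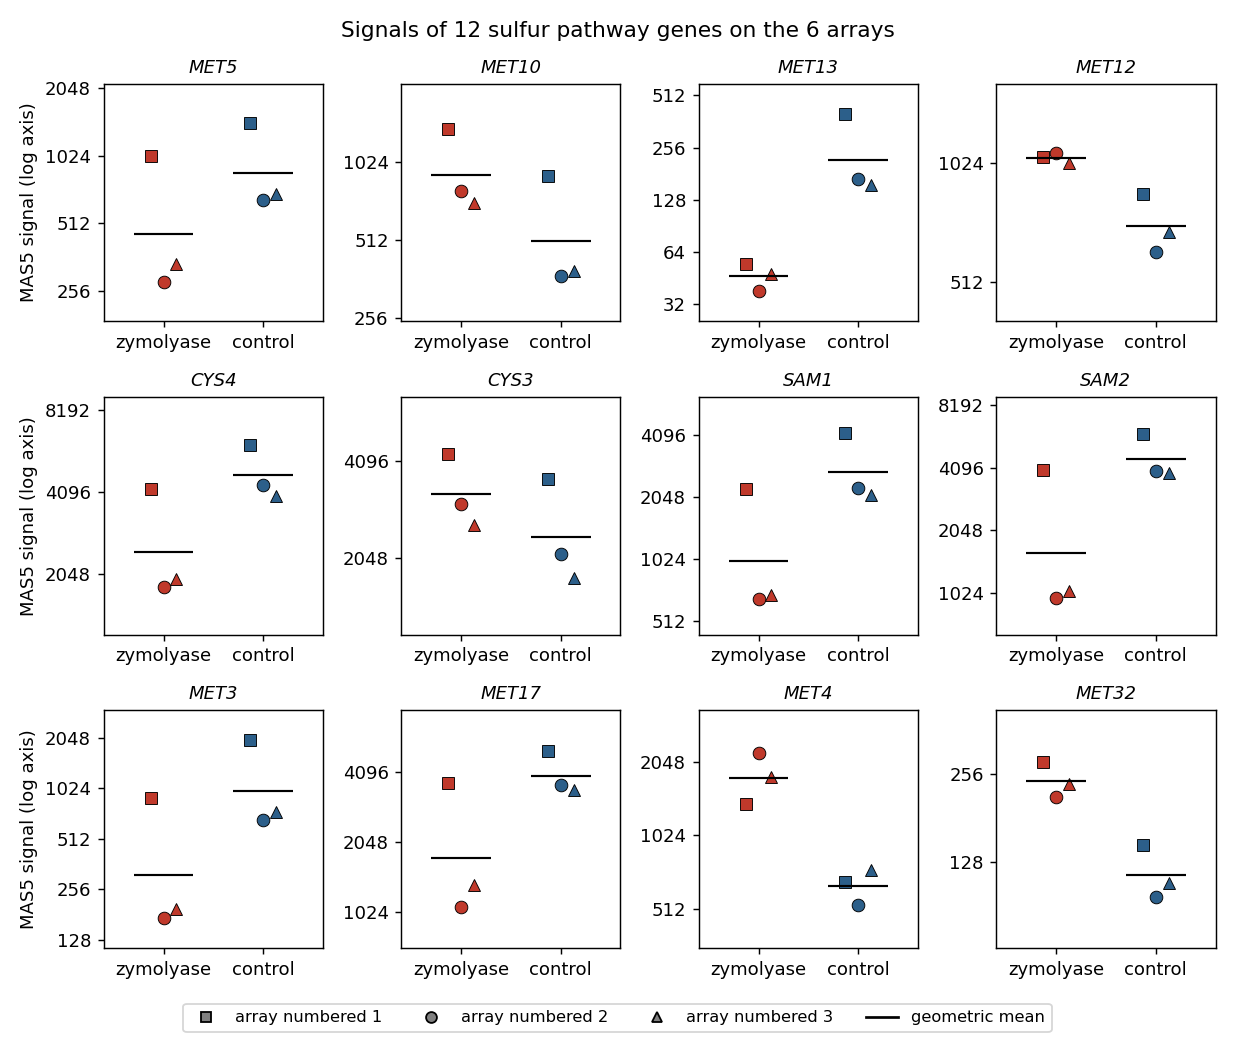
MAS5 signal of 12 pathway genes on each array, on log axes that differ between panels, with zymolyase arrays in red on the left and control arrays in blue on the right; the bar is the geometric mean and the marker shape gives the array number. Within each same-numbered pair MET5 lies lower and MET10 higher on the zymolyase array, though the groups overlap for both. The squares of array 1 stand above the other arrays of their group for MET3, MET5, MET10, SAM1 and SAM2.

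Of 6 genes for homocysteine and methionine, 1 fell, 1 rose and 4 did not pass, 33.3% called against 42.5% of all genes. MET17 and MET6 were added to the falls with the block, 66.7% against 58.6% of all genes. MET13 and MET12, both for methylenetetrahydrofolate reductase, which makes the methyl donor of methionine synthesis, changed in opposite directions. MET13, the main isozyme, had signals of 54.9, 38.3 and 47.6 on the zymolyase arrays and 398.0, 168.7 and 155.0 on the control arrays. It fell 4.70-fold (log2 -2.23, SE 0.37, adjusted p = 0.00305), with log2 changes of -2.86, -2.14 and -1.70 in the 3 pairs, and kept its call when any single array was left out. MET12 had 1060.1, 1085.8 and 1026.9 on the zymolyase arrays and 858.5, 611.4 and 686.0 on the control arrays, a rise of 1.49-fold (0.57, SE 0.16, adjusted p = 0.0246). The call of MET12 was lost on centred arrays (0.41, adjusted p = 0.06), with the length trend removed (0.31, adjusted p = 0.121) and without zymolyase array 2 or 3 or control array 2 or 3. Within an array, the log2 ratio of MET13 to MET12 differed between groups by -2.81 (SE 0.35), with no overlap.

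MET6, for cobalamin-independent methionine synthase, had signals of 2483.6, 656.9 and 789.8 on the zymolyase arrays and 4608.2, 1746.2 and 2082.1 on the control arrays. It was lower in every pair, with a change of -1.23 (SE 0.54, adjusted p = 0.101) and an adjusted p of 0.000831 with the block. MET7, which adds glutamates to folate, had -0.34 (SE 0.14, adjusted p = 0.09), and the groups did not overlap. MET7 passed on centred arrays (-0.50, adjusted p = 0.0213), with quantile normalization (adjusted p = 0.0324), with the length trend removed (-0.48, adjusted p = 0.0296) and without both arrays numbered 1 (adjusted p = 0.019). MET2, which acetylates homoserine, had a change of 0.02 (SE 0.44, adjusted p = 0.98), and the other sign on centred arrays, at -0.14.

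All 5 genes of the AdoMet cycle passed, 4 of them lower, beside 42.5% of all genes called and 20.0% called lower. Of the 5, only SAH1 kept its call under every alternative run. Without limma's intensity trend, SAM1, SAM2 and SAM4 did not pass (adjusted p = 0.0625, 0.0635 and 0.0601). With quantile normalization SAM1 and SAM2 did not pass (adjusted p = 0.056 and 0.0679). SAM1 and SAM2 encode the AdoMet synthetases and are near-identical copies, so their probe sets may read each other's transcript in part. SAM1 had signals of 2255.6, 661.4 and 688.9 on the zymolyase arrays and 4200.6, 2286.4 and 2100.9 on the control arrays, a fall of 2.70-fold (log2 -1.43, SE 0.49, adjusted p = 0.0458). SAM2 had 3997.4, 970.3 and 1042.9 on the zymolyase arrays and 5955.5, 3927.0 and 3861.9 on the control arrays, a fall of 2.82-fold (-1.49, SE 0.51, adjusted p = 0.0464). In both genes zymolyase array 1 lay among the control arrays, and the calls were lost when any array other than zymolyase array 1 was left out and with the length trend removed (adjusted p = 0.0586 and 0.06). With the block the adjusted p was 0.00108 and 0.00357. The log2 ratio of SAM1 to SAM2 within an array was -0.66 ± 0.15 on the zymolyase arrays and -0.72 ± 0.19 on the control arrays (SD, n = 3 each), a difference of 0.06 (SE 0.14, exact two-sided permutation p = 0.8).

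SAH1, for the hydrolase that clears S-adenosylhomocysteine, the product of every AdoMet-dependent methylation, had signals of 3048.6, 1658.5 and 1677.4 on the zymolyase arrays and 5139.4, 4562.4 and 3579.8 on the control arrays. It fell 2.15-fold (log2 -1.10, SE 0.26, adjusted p = 0.0116), without overlap, and kept its call when any single array was left out. SAM4 and MHT1, which both recycle homocysteine to methionine, with AdoMet and with S-methylmethionine as methyl donor, changed in opposite directions. SAM4 fell by 0.47 on the log2 scale (SE 0.17, adjusted p = 0.0498), and the call was lost with the length trend removed (adjusted p = 0.148) and without zymolyase array 2 or 3 or control array 1 or 2. MHT1 had signals of 134.1, 149.1 and 183.4 on the zymolyase arrays and 97.8, 84.1 and 101.1 on the control arrays. It rose 1.64-fold (0.71, SE 0.20, adjusted p = 0.0224), and lost its call without zymolyase array 2 or 3 or control array 2.

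None of the 4 transsulfuration genes passed limma's test without the block, and 1 of them, CYS4, had an unadjusted p under 0.05. With the block 1 fell and 2 rose, 75.0% against 58.6% of all genes. CYS4, for cystathionine beta-synthase, which starts the route from homocysteine to cysteine, had signals of 4217.2, 1838.4 and 1958.9 on the zymolyase arrays and 6119.5, 4367.6 and 3970.5 on the control arrays. CYS3, for cystathionine gamma-lyase, which completes that route, had 4299.0, 2998.0 and 2588.7 on the zymolyase arrays and 3579.7, 2106.2 and 1773.0 on the control arrays. CYS4 was the lower and CYS3 the higher in every pair, and both groups overlapped through the arrays numbered 1. The change of CYS4 was -0.93 (SE 0.33, adjusted p = 0.0506) and that of CYS3 was 0.44 (SE 0.29, adjusted p = 0.258). With the block the adjusted p was 0.00212 and 0.0125. The log2 ratio of CYS4 to CYS3 within an array differed between groups by -1.37 (SE 0.23), without overlap. On the reverse route, from cysteine to homocysteine, STR2, for cystathionine gamma-synthase, had a change of 0.48 (SE 0.21, adjusted p = 0.106, 0.0308 with the block, and 0.193 with the block and the length trend removed), and STR3, for cystathionine beta-lyase, one of 0.41 (SE 0.45, adjusted p = 0.491).

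The log2 ratios within an array, which scaling cannot move, were computed for 6 pairs of genes chosen after their values were seen. In 5 of them the groups did not overlap (exact two-sided permutation p = 0.1 each, the smallest possible, and 0.12 adjusted over the 6), and SAM1 to SAM2 was the exception. The fifth such ratio, that of the regulators MET32 to MET31, differed by 0.79 (SE 0.22). Since the pairs were picked by their values, these ratios are a description, and they do not show that either gene of a pair stayed the same.

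None of the 4 permease genes for methionine and AdoMet passed limma's test without the block, and 0 had an unadjusted p under 0.05. MUP1, the high-affinity methionine permease, had signals of 1019.6, 629.5 and 846.3 on the zymolyase arrays and 1380.1, 524.9 and 494.6 on the control arrays, a change of 0.20 (SE 0.39, adjusted p = 0.71). The low-affinity MUP3 had -0.13 (SE 0.23) and SAM3, the AdoMet permease, -0.24 (SE 0.41). MMP1, the S-methylmethionine permease, had signals of 145.1, 70.8 and 61.9 on the zymolyase arrays and 123.3, 32.8 and 20.5 on the control arrays. MMP1 was higher on the zymolyase array of every pair, and its change of 0.98 (SE 0.65, adjusted p = 0.256) passed with the block only (adjusted p = 0.0219).

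Among the 6 regulators, MET4 and MET32 rose and the others did not pass without the block, 33.3% called against 42.5% of all genes. MET4, the activator itself, had signals of 1377.3, 2228.5 and 1782.6 on the zymolyase arrays and 657.7, 529.9 and 738.3 on the control arrays. It rose 2.77-fold (log2 1.47, SE 0.21, adjusted p = 0.002), by 1.07, 2.07 and 1.27 in the 3 pairs. MET32, a zinc finger protein that brings Met4 to DNA, had 282.5, 213.1 and 236.8 on the zymolyase arrays and 146.5, 97.6 and 108.4 on the control arrays, a rise of 2.10-fold (1.07, SE 0.22, adjusted p = 0.00613). Both genes kept their call on centred arrays, with the length trend removed and when any single array was left out. MET31, the related zinc finger protein, had a change of 0.28 (SE 0.14, adjusted p = 0.151), with no overlap between groups, and passed with the length trend removed (0.53, adjusted p = 0.0189).

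MET30, for the F-box protein that marks Met4 with ubiquitin, had a change of 0.54 (SE 0.29, adjusted p = 0.167) and passed with the block (adjusted p = 0.0365). MET28, a cofactor of Met4 on DNA, had -0.45 (SE 0.22, adjusted p = 0.133), and it too passed with the block (adjusted p = 0.0382). With the block and the length trend removed, MET30 and MET28 did not pass (adjusted p = 0.161 and 0.327). CBF1, which binds both centromeres and the promoters of sulfur genes, had signals of 319.8, 614.4 and 438.6 on the zymolyase arrays and 372.3, 404.9 and 328.6 on the control arrays. Its groups overlapped, with a change of 0.27 (SE 0.24, adjusted p = 0.413). With the block 3 of the 6 regulators rose and 1 fell. From aspartate to threonine 3 of 5 genes fell, and in the AdoMet cycle 4 of 5 fell and 1 rose. Among the 8 genes of sulfate activation and reduction 2 rose and 4 fell, and among the 6 for homocysteine and methionine 1 rose and 3 fell. For transsulfuration 2 of 4 rose and 1 fell, and of the 4 permease genes for methionine and AdoMet 1 rose. Over all genes 31.2% rose and 27.3% fell with the block, and the shares called were 66.7% of the regulators and 60.0% of the genes from aspartate to threonine, near the 58.6% of all genes. For the AdoMet cycle the share was 100%. A difference between these groups of genes was not tested.

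**Figure D3:**
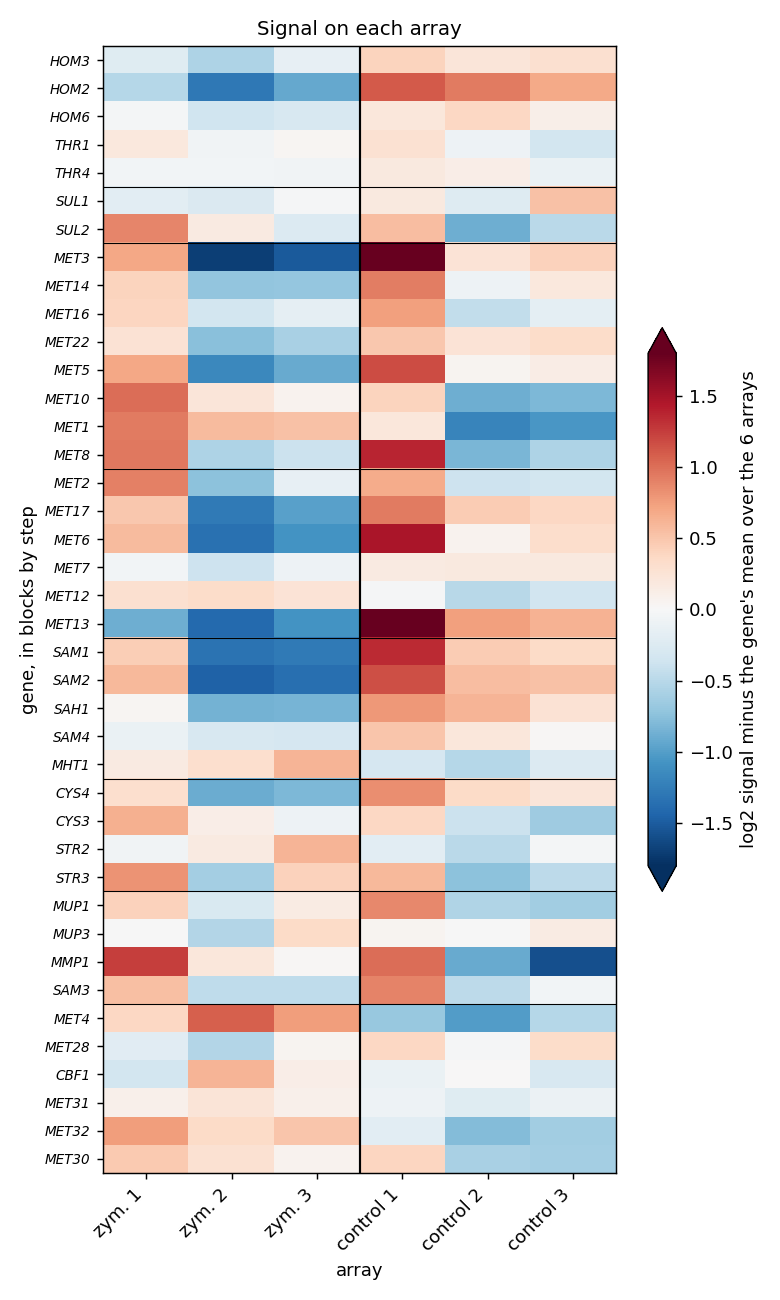
Log2 signal of the 40 genes on each array minus the gene's mean over the 6 arrays, zymolyase arrays left of the line and control arrays right of it, with genes in blocks by step. Control array 1 is the brightest column for MET3, MET6, MET13 and SAM1, and zymolyase arrays 2 and 3 are the dimmest for MET3, SAM1 and SAM2.

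The same genes also varied between arrays of one group. The median SD within a group was 0.44 on the log2 scale for the 40 genes and 0.24 for all genes. The signals of the groups did not overlap for 13 of the 40 genes, 7 of them lower and 6 higher, which is 32.5% against 52.9% of all genes (25.7% lower and 27.2% higher). Within pairs of the same number, however, 31 of the 40 genes, or 77.5%, had the same sign in all 3 pairs, beside 76.3% of all genes. Of the 31, 18 were lower and 13 higher, beside 35.6% and 40.7% of all genes. The spread followed the array number: in 27 of the 40 genes, or 67.5%, array 1 was the brightest of its group in both groups, which held for 27.8% of all genes. Array 1 was the dimmest in both groups for 0 of the 40 genes and for 23.1% of all genes.

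The excess of array 1 over the mean of arrays 2 and 3 had a median of 0.54 on the log2 scale over the 40 genes in the zymolyase group and of 0.54 in the control group, against 0.03 and 0.02 over all genes. It was over 2-fold in both groups for MET3, MET5, MET8, MET2, MET6 and MMP1, which is 15.0% of the 40, beside 1.39% of all genes. For MET3 it was 2.29 in the zymolyase group and 1.51 in the control group. All 8 genes of sulfate activation and reduction were brightest on array 1 in both groups, as were 4 of 5 genes of the AdoMet cycle, whereas 2 of the 6 regulators were. CBF1, MET4, STR2 and MHT1 went the other way in the zymolyase group, where array 1 stood at -0.70, -0.53, -0.46 and -0.30 relative to the other arrays. The excesses in the 2 groups correlated across the 40 genes with Pearson's r = 0.62, beside 0.49 across all genes, where genes of an array share its RNA and labelling. The 3′ to 5′ log2 ratio of the control genes was also lowest on array 1 of each group, at 2.19 against 2.85 and 2.75 on zymolyase arrays 2 and 3, and at 0.58 against 0.99 and 0.99 on control arrays 2 and 3. Its part in the excess was not tested, and the labels do not say what the number stands for.

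**Figure D4:**
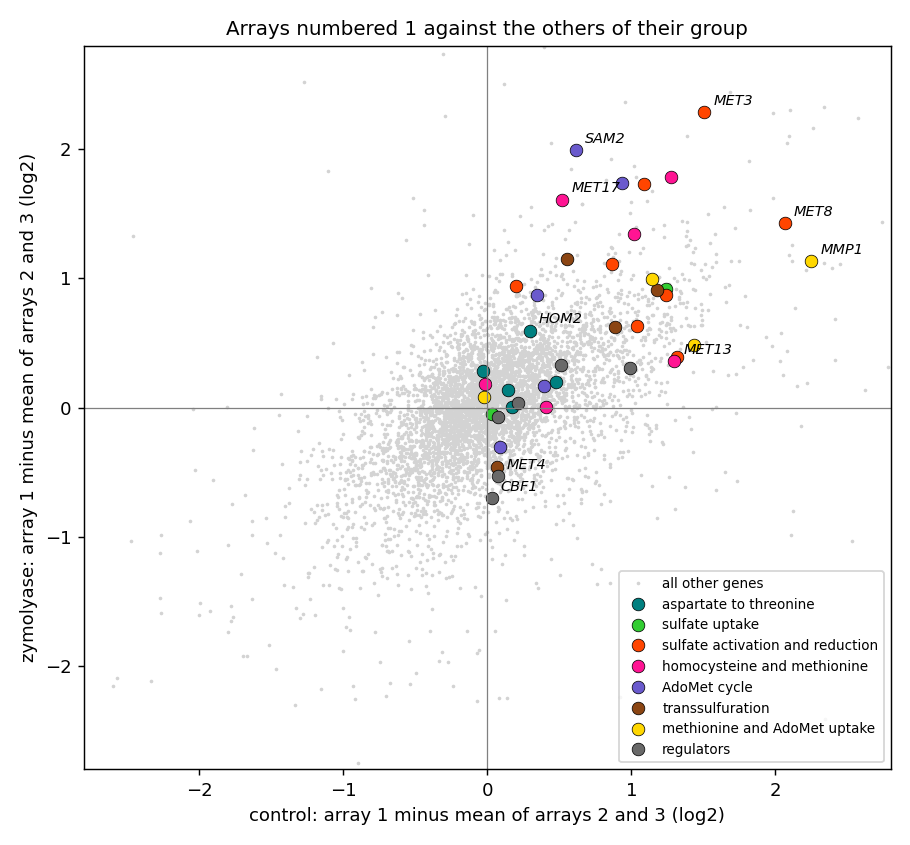
Excess of array 1 over the mean of arrays 2 and 3 on the log2 scale, in the zymolyase group (vertical) against the control group (horizontal), for the 40 genes in colours by step and all other genes in grey; 31 genes, none of them in colour, lie outside the frame. Most coloured points lie in the upper right, with MET3, MET8 and MMP1 farthest out.

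Beside the 40 genes, 48 genes of neighbouring pathways were listed, of which 47 were measured. Of these 10 fell and 4 rose, 29.8% against 42.5% of all genes (20.0% lower and 22.5% higher). With the block 22 fell and 9 rose, 66.0% against 58.6% of all genes (27.3% lower and 31.2% higher). GLY1, the threonine aldolase that makes glycine from threonine, had signals of 1054.5, 459.6 and 435.8 on the zymolyase arrays and 3603.0, 2052.9 and 1910.4 on the control arrays, a fall of 4.06-fold (log2 -2.02, SE 0.38, adjusted p = 0.00475). IRC7, a cysteine desulfhydrase, fell 2.90-fold, MDE1, of the methionine salvage route, 2.63-fold, and SER3, for the first enzyme of serine synthesis, 2.25-fold. SER1, the next enzyme of serine synthesis, fell 1.74-fold, and SHM2, which passes the carbon of serine to folate, 1.78-fold. These genes supply or spend the serine, cysteine and methyl groups of the sulfur pathway. SER33 and SER2, also of serine synthesis, did not pass without the block. SER33 had a change of -0.0073 (adjusted p = 0.984) and SER2 one of 0.54 (adjusted p = 0.124). With the block SER2 rose (adjusted p = 0.00876).

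ADO1, the adenosine kinase that removes a product of Sah1, fell 1.69-fold, a call that did not hold without zymolyase array 2 or 3 or control array 2. SKP1, the adaptor of the Met30 ubiquitin ligase, fell 1.93-fold. GCN4 had signals of 4439.4, 4103.5 and 3682.0 on the zymolyase arrays and 6479.8, 7613.5 and 6063.6 on the control arrays, a fall of 1.65-fold (-0.72, SE 0.14, adjusted p = 0.00588). GCN2, the kinase that raises Gcn4 synthesis at the level of translation, rose 1.95-fold, a call lost without zymolyase array 1 or 2 or control array 2 or 3. With the length trend removed its change was 0.25, for a gene of 4980 bases. The other rises were those of ARO9, an aminotransferase that also acts in methionine salvage, at 2.54-fold, GNP1, an amino acid permease, at 1.72-fold, and DUG2, of glutathione breakdown, at 1.51-fold. The change of DUG2 was 0.16 with the length trend removed, and leaving out zymolyase array 2, control array 2 or control array 3 ended its call.

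Across all 5449 genes, which are no replicates of each other, the change correlated with coding length (Spearman's rho 0.34), and across these 40 at 0.14. The 40 had a median length of 1492.5 bases, against 1236 for all genes. With the length trend removed, 7 of the 40 fell and 5 rose, 30.0% against 38.0% of all genes (19.9% lower and 18.1% higher), and 8 of the 13 calls remained. Centring each array on its median moved the median change of all genes to -0.12, against 0.04 as deposited. On that scale 13 of the 40 genes fell and 4 rose, 42.5% against 44.3% of all genes (26.8% lower and 17.5% higher), and 12 of the 13 calls remained.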

How the data were processed

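The deposited values are MAS5 signal intensity, per the submitters' processing notes, and are linear by their range; version and settings of MAS5 are not given in the sources used here. The trimmed mean of each array was 500.2 to 500.3, so arrays had been scaled. About 4 µg of total RNA per sample was labelled, per the labels' protocols. Of 10928 probe sets, 5498 had a single symbol of an S. cerevisiae gene by the platform annotation, updated through NCBI's R64 table, which gave 5449 genes (brightest probe set per gene). Zeros, none of them in these genes, were set to 0.1. The log2 of the deposited signal was fitted with limma 3.58.1 in R 4.3.3 (lmFit, eBayes with intensity trend), adjusted by Benjamini-Hochberg over all genes at 0.05, after a test on simulated data. Log2 changes are zymolyase minus control. The number of arrays limits the precision.

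Deviations of same-numbered arrays from their group means correlated at 0.49, 0.20 and 0.41, each above 0.1, which was taken as pairing; this rests on the data, since the labels give only the numbers. Arrays of different numbers also passed 0.1, zymolyase array 2 with control array 3 at 0.20 and zymolyase array 3 with control array 2 at 0.23. The check therefore cannot tell how arrays 2 and 3 pair. The block was chosen from the same values to which it was then fitted. Of the members, MET17 and those called with at least 2-fold are given on each array, and others given so were chosen after their values were seen. Genes of neighbouring pathways are named where called with at least 1.5-fold, and SER33 and SER2 are given beside SER3 and SER1. The members and lists were chosen with earlier results of these data known. Length is coding length from R64. No sequence was used.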

Additional observations from a re-analysis of the deposited data

How the results depend on the processing

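None of the 13 called genes turned its sign under the alternatives run for it, 17 for most and 16 for MET13, MET32 and MHT1, which the filter on dim genes left out; 5 of them (HOM2, MET13, SAH1, MET4 and MET32) kept their call under each, SAH1 with an adjusted p just under 0.05 without zymolyase array 2. Of the 27 genes not called, 18 passed under at least 1 alternative, SUL2 and CBF1 under 1 (without both arrays numbered 1, adjusted p = 0.0254 and 0.0193). The number of the 40 genes called was 13, and it moved to 26 with the replicate block, 21 with the replicate block and the length trend removed, and 29 without both arrays numbered 1. It ranged from 5 (without zymolyase array 2) to 21 (without zymolyase array 1) when 1 array was left out; it was 7 without zymolyase array 3, 6 without control array 2 and 7 without control array 3. These counts have fewer arrays in 1 group, and the cause of their spread was not tested. The genes' median log2 change of -0.12 was -0.28 on centred arrays, and ranged from -0.35 (without zymolyase array 1) to 0.040 (without control array 1) when 1 array was left out; the cause was not tested. Over all genes, 2316 were called, 3192 with the block, and 1619 to 2479 with 1 array left out. The 3′ to 5′ difference of 1.74 ranged from 1.61 to 1.95 with 1 array left out.

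Genes that had not passed changed sign as follows, none of them passing in the turned direction. On centred arrays the log2 change was -0.059 for THR1, -0.15 for MET8 and -0.14 for MET2. With quantile normalization it was -0.0071 for MET2. With log2(signal + 16) it was -0.011 for MET8. With the length trend removed, with or without the block, it was 0.16 for MET16 and -0.043 for MET2. Without both arrays numbered 1 it was 0.053 for MET16 and -0.091 for MET2. With 1 array left out it ranged from -0.040 to 0.26 for THR1, -0.32 to 0.26 for MET16, -0.47 to 0.69 for MET8, -0.43 to 0.39 for MET2, -0.061 to 0.68 for MUP1, -0.34 to 0.10 for MUP3 and -0.58 to 0.14 for SAM3. Signals near background limit SUL1.

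Over the alternatives the adjusted p of genes given with one of them ranged from 2.08e-07 to 0.184 for MET17, 0.019 to 0.248 for MET7, 0.0254 to 0.868 for SUL2, 0.0193 to 0.938 for CBF1, 0.014 to 0.113 for HOM6, 2.6e-08 to 0.243 for MET3, 0.000186 to 0.41 for MET14, 8.85e-06 to 0.188 for MET22, 6.68e-06 to 0.476 for MET5 and 1.62e-05 to 0.49 for MET10. It ranged from 0.000245 to 0.121 for MET12, 2.83e-07 to 0.302 for MET6, 1.51e-08 to 0.157 for SAM1, 9.06e-09 to 0.16 for SAM2, 0.0163 to 0.148 for SAM4 and 1.18e-05 to 0.17 for CYS4. For the others it was 0.00805 to 0.592 for CYS3, 0.00305 to 0.369 for STR2, 0.00197 to 0.618 for MMP1, 0.0118 to 0.517 for MET31, 0.0013 to 0.42 for MET30 and 0.0332 to 0.495 for MET28. Except for HOM6, SAM4, CYS3, MET31 and MET28, the lowest value came from the fit without both arrays numbered 1. That fit has fewer arrays and leaves out those that were brightest for many of these genes. With all 6 arrays and no block, limma's adjusted p was 0.077 for MET3, 0.101 for MET6, 0.0458 for SAM1 and 0.0464 for SAM2.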
